A study of Mus musculus with 10 samples.

Results

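The genes described here are the matrix proteases of the Mmp, Adamts and Htra families, their Timp inhibitors, and the Adamtsl proteins, which resemble Adamts proteases but lack a catalytic domain. Members were all probes of the bead array whose annotated symbol begins with Mmp, Timp, Adamts or Htra followed by a digit or by the letter l. They were 97 probes of 50 genes, of 45281 probes and 19057 annotated genes in all. By family, 21 genes were Mmp, 17 Adamts, 4 Adamtsl, 4 Timp and 4 Htra.

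RNA came from IM2 cultures, a mouse myoblast line, after 4 days of fusion into myotubes, and every culture carried a construct for PABPN1 with a FLAG tag. PABPN1 binds poly(A) tails in the nucleus and is mutated in oculopharyngeal muscular dystrophy. The WTA group carried the wild type protein (2 arrays), the WTD group carried the wild type protein at a low level (3 arrays), and the D7E group carried a mutant protein at a level that the labels liken to WTA (3 arrays). No group without the construct was analysed here, and the labels name neither the promoter of the construct nor the number of clones behind a group. They also do not say whether each replicate was its own culture. The p-values therefore cover only how these arrays vary, and that variation may be technical.

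Matrix metalloproteinases are zinc enzymes that are made as inactive precursors and cut collagens, proteoglycans and other matrix proteins once activated. Timp proteins bind the active site of these enzymes and block it, and Timp3 also holds back Adamts and Adam proteases. Adamts enzymes cut proteoglycans such as versican and aggrecan or trim procollagens, and Htra enzymes are serine proteases that are secreted (Htra1, Htra3) or mitochondrial (Htra2). In muscle these proteins remodel the matrix around fibres while myoblasts migrate and fuse.

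Of the 97 member probes 41 were detected on 2 or more of the 8 arrays (detection p under 0.05) and were tested, which is 42.3% against 41.6% of all probes. They stood for 31 genes, and 21 of the probes, for 17 genes, were detected on all 8 arrays. Detection differed by family. All 4 Timp genes, all 4 Adamtsl genes and 3 of 4 Htra genes were tested, against 11 of 21 Mmp genes and 9 of 17 Adamts genes. Between 26 member probes (WTD replicate 2) and 39 (WTD replicate 1) were detected on an array. The detection p-values of WTD replicates 1 and 3 were estimated from the signals, because the deposited ones did not follow the signals of those arrays. On the other arrays such estimates detected more probes than the deposited values did. With the deposited p-values throughout, 36 member probes passed the filter.

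**Figure D1:**
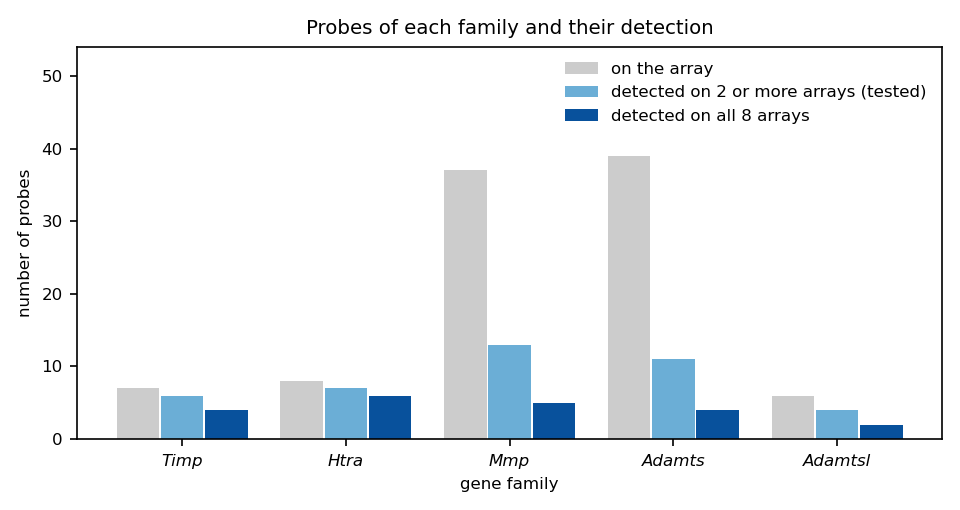
Number of probes (vertical axis) of each gene family (horizontal axis) on the array, detected on 2 or more arrays, and detected on all 8 arrays. Of 37 Mmp probes 13 were tested and of 39 Adamts probes 11, against 6 of 7 Timp probes and 7 of 8 Htra probes.

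The genes not tested were Mmp7, Mmp8, Mmp9, Mmp10, Mmp12, Mmp17, Mmp19, Mmp20, Mmp21, Mmp25, Adamts3, Adamts8, Adamts9, Adamts13, Adamts14, Adamts15, Adamts17, Adamts18 and Htra4. Each of their probes was detected on at most 1 array. Mmp9, gelatinase B, is among them, so of the gelatinases Mmp2 alone had a level here. In RefSeq, 10 Mmp genes lie next to each other on chromosome 9 (Mmp13, Mmp12, Mmp1b, Mmp3, Mmp1a, Mmp10, Mmp8, Mmp27, Mmp20 and Mmp7, in this order). The array held probes of 9 of them, and 4 passed the filter (Mmp13, Mmp1b, Mmp3 and Mmp1a), each at a low level.

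A few facts of the whole series bear on these values. Of 12 markers of myotubes 11 were measured, each on all 8 arrays, and none was called in any comparison. The satellite cell markers Pax7, Pax3 and Myf5 did not pass the filter, while Myod1, Cdh15 and Vcam1 were measured and not called. The linear intensities of all 6 markers were summed on each array, those that did not pass the filter included. The sum was 2595 to 2654 in WTA, 3107 to 3862 in WTD and 2647 to 3468 in D7E, most of it from Cdh15. It was higher in WTD without overlap with WTA, as Timp1 was. In D7E the sum overlapped WTA, whereas Timp1 did not. For WTD over WTA, Myod1 and Cdh15 had 0.29 and 0.46 (log2), and Vcam1 went the other way with -0.20. For D7E over WTA the 3 had 0.43, 0.24 and -0.45. The part of these markers in the Timp1 result was not tested. Markers of endothelial cells (3 of 6 measured), macrophages (2 of 7) and adipocytes (2 of 5) lay near background, no Schwann cell marker of 4 was measured, and of the chondrocyte markers Sox9 alone was detected on all arrays. Of 6 smooth muscle and pericyte markers 4 were measured, of which Acta2 was bright on every array. The Pabpn1 probe had levels of 9.24 and 9.18 on WTA, 10.24, 10.26 and 9.87 on WTD, and 9.16, 9.58 and 10.58 on D7E arrays. Its difference was 0.91 ± 0.32 (log2, SE) for WTD over WTA (limma adjusted p = 0.205). The sources used here do not say whether this probe reads the RNA of the construct, so it does not check the labelled levels. Fibroblast markers are given beside the proteases below.

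Levels are log2 intensities after background correction and quantile normalization over all 8 arrays. Each probe was tested with limma over all 18815 probes that passed the filter, and a probe was called when its Benjamini-Hochberg adjusted p was under 0.05. A level compares arrays for 1 probe and does not compare probes. The comparisons of WTD and of D7E with WTA share the 2 WTA arrays, so their values stand side by side and are not independent.

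Myotubes with low wild type PABPN1 (WTD) differed from WTA in 4 of the 41 member probes tested, which stand for 3 genes. Timp1 rose with both of its probes, and the proteases Mmp3 and Htra3 fell with 1 probe each. Across all tested probes 1.43% were called in this comparison, 0.824% higher and 0.606% lower. Before adjustment 11 of 41 member probes had a p under 0.05, against 14.1% of all tested probes. Mutant myotubes (D7E) differed from WTA in 2 member probes, Timp1 higher and Mmp3 lower, against 0.569% of all probes, 0.298% higher and 0.271% lower, and 8 of 41 had an unadjusted p under 0.05, against 12.4%. Between D7E and WTD no member probe was called by limma, where 5 of all 18815 probes (0.0266%) were, and 6 of 41 member probes had an unadjusted p under 0.05, against 8.12%.

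The member genes mostly lay close to 0. Of the 31 genes, each read by its brightest tested probe, 20 were within 0.25 of 0 on the log2 scale for WTD over WTA, 22 for D7E over WTA and 18 for D7E over WTD. The median difference was -0.02, 0.13 and 0.08 in these comparisons, and 14, 23 and 23 of the genes were on the higher side. Over all 41 member probes the median was 0.01, 0.08 and 0.03, against -0.014, -0.002 and 0.010 over all tested probes. The tested probes as a whole lay about as close to 0. Their median absolute difference was 0.183, 0.172 and 0.140, against 0.168, 0.151 and 0.157 over member probes. The SD between replicate arrays had a median over member probes of 0.150 in WTA, 0.207 in WTD and 0.171 in D7E, against 0.155, 0.200 and 0.157 over all tested probes.

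**Figure D2:**
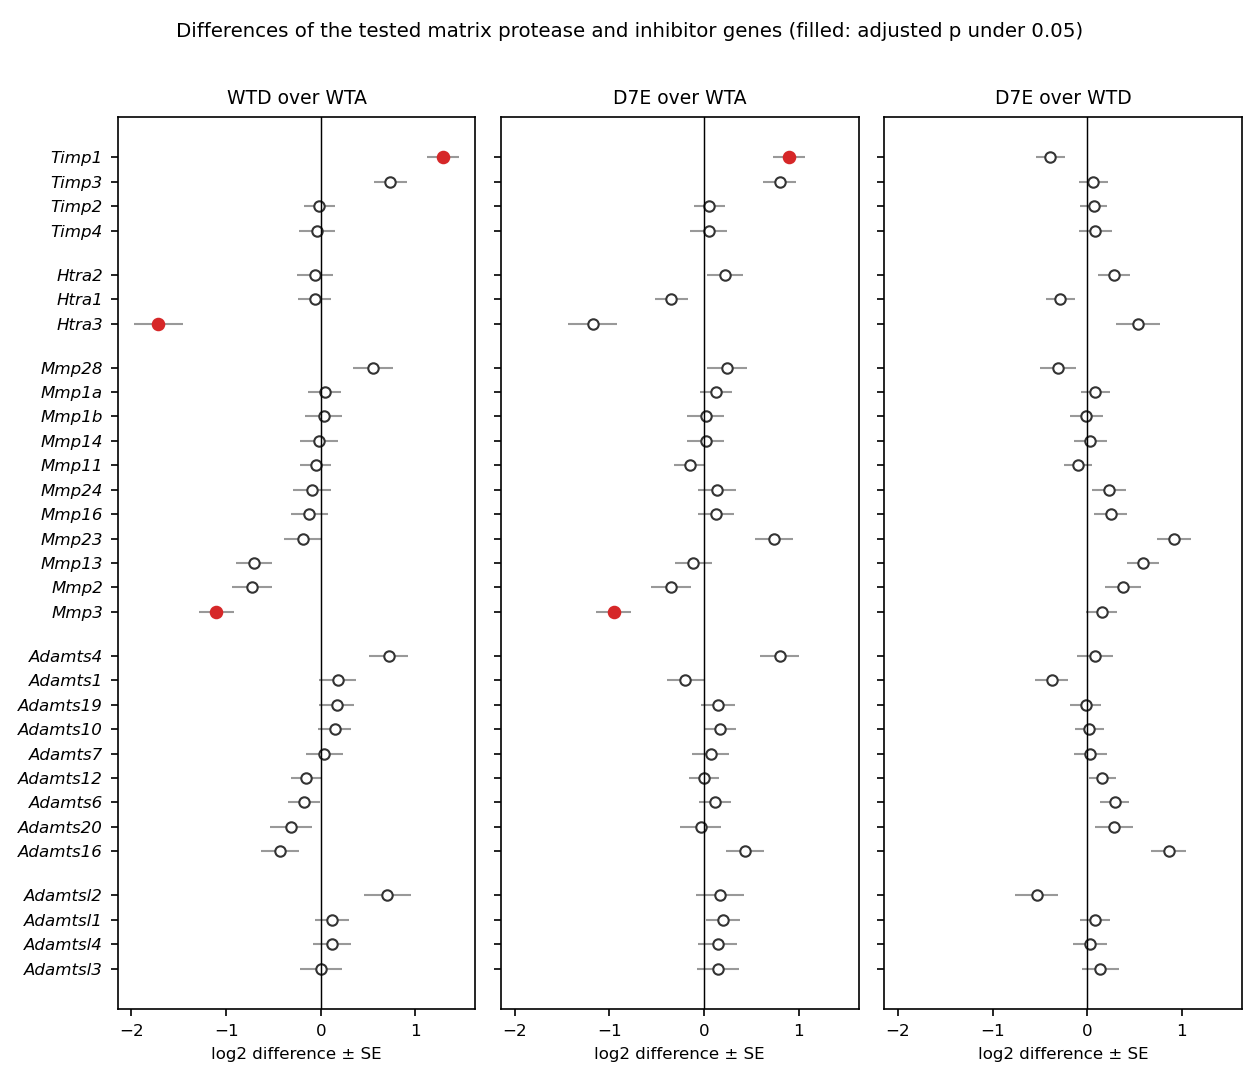
Log2 difference with its SE (horizontal axis) of each of the 31 tested genes (vertical axis, grouped by family) for WTD over WTA, D7E over WTA and D7E over WTD. Filled points have an adjusted p under 0.05. They are Timp1 and Mmp3 in both comparisons with WTA, and Htra3 in WTD over WTA. No gene is filled in D7E over WTD.

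The promoter windows of the 3 called genes are printed because these genes are what differed, so that their start regions can be set beside each other. Each window runs from 250 bases before to 50 bases after the gene's start, in RefSeq on GRCm38.p6, written 5′ to 3′ on the gene's strand. Capitals mark matches to motifs that were searched on both strands. The AP-1 site was searched as TGACTCA. The TATA box was searched as TATAAA. The E-box was searched as CACGTG and the GC box as GGGCGG.
Timp1, chrX:20869916-20870215, plus strand: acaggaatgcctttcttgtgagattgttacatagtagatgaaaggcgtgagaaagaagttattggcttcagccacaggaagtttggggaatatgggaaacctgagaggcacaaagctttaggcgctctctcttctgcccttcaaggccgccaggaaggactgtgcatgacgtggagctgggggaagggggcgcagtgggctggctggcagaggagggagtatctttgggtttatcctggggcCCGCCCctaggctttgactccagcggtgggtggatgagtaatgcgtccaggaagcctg
Mmp3, chr9:7445572-7445871, plus strand: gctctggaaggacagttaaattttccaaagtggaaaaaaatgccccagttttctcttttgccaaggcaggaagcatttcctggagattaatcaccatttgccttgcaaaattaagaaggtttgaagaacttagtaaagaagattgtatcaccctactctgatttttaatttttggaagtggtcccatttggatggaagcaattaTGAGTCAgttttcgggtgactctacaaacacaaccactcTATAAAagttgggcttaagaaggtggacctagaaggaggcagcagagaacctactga
Htra3, chr5:35679731-35680030, minus strand: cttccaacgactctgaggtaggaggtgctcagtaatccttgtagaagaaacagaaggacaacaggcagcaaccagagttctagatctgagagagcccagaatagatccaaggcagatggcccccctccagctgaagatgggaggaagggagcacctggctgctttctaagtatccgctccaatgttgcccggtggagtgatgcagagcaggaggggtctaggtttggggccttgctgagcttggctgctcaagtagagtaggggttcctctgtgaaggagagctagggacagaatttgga

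The Mmp3 window held an AP-1 match 46 bases before the RefSeq start, as its reverse complement TGAGTCA. A match to the letters of the TATA box lay 7 bases before that start, and the matches do not overlap. All of these are matches of letters, and whether they act as promoter elements was not tested. The Timp1 window held a GC box 8 bases before the start, as CCGCCC. None of the 4 motifs matched in the Htra3 window. An AP-1 match was in 5.20% of all 32851 windows of this length, a TATA box in 13.6%, an E-box in 7.15% and a GC box in 35.7%. Windows were matched for 21 of the 31 tested genes (22 windows). An AP-1 match was in 4 of these windows, all of the chromosome 9 group (Mmp13, Mmp1a, Mmp1b and Mmp3), a TATA box in 6, a GC box in 14 and an E-box in 0. In RefSeq the Timp1 gene lies within the span of Syn1.

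The inhibitors come first. Timp1, a secreted inhibitor of most metalloproteinases, had levels of 10.72 and 10.66 on the WTA arrays, 12.14, 11.90 and 11.92 on the WTD arrays, and 11.69, 11.70 and 11.39 on the D7E arrays. All WTD and all D7E arrays were above both WTA arrays, and all WTD arrays were above all D7E arrays. The difference for WTD over WTA was 1.29 ± 0.17 (log2, SE), a 2.45-fold higher level (limma adjusted p = 0.00459), and for D7E over WTA 0.90 ± 0.17, or 1.87-fold (adjusted p = 0.0395). Between D7E and WTD it was -0.39 ± 0.15 (adjusted p = 0.524). With the arrays centred on their medians in place of quantile normalization this last difference turned to 0.33, so the order of D7E and WTD is not settled.

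The second Timp1 probe read 10.50 and 10.61 on WTA, 11.74, 11.64 and 11.49 on WTD, and 11.66, 11.41 and 11.09 on D7E arrays. Again no array of WTD or D7E reached down to WTA, but WTD and D7E overlapped. Its difference was 1.07 (log2) for WTD over WTA (adjusted p = 0.0199), and 0.83 for D7E over WTA (adjusted p = 0.0771), which missed the threshold. The WTD call of this probe was kept under 10 of 16 other settings and lost without WTA replicate 1 or 2 or without WTD replicate 1 or 2, with adjusted p between 0.0518 and 0.191 at differences of 1.0 to 1.13.

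The Timp1 call in WTD was kept under 14 of 16 other settings and that in D7E under 7 of 16, with the same direction in all of them. Without WTA replicate 1 the WTD call was lost at 1.32 (limma adjusted p = 0.0700). The D7E call was lost without WTA replicate 1 or 2, without D7E replicate 1 or 2 and without WTD replicate 1, with differences between 0.85 and 0.93.

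Timp3, an inhibitor that stays bound to the matrix, had levels of 6.73 and 7.06 on WTA, 7.77, 7.71 and 7.44 on WTD, and 7.76, 7.71 and 7.64 on D7E arrays. Every WTD and D7E array was above both WTA arrays. The differences of 0.74 ± 0.17 (WTD over WTA, limma adjusted p = 0.0639) and 0.80 ± 0.17 (D7E over WTA, adjusted p = 0.0691) missed the threshold, and each passed it under 4 of 16 other settings. The 4 included the authors' normalized values and the fit without WTD replicate 3, where the differences were 0.83 and 0.80. The second Timp3 probe was near background, detected on 2 arrays.

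Timp2, which together with Mmp14 takes part in activating Mmp2, stayed between 11.84 and 12.13 on all arrays. It read 11.84 and 12.13 on WTA, 11.90, 12.00 and 12.02 on WTD, and 12.07, 11.94 and 12.12 on D7E arrays, so the groups overlapped. The differences were -0.01 ± 0.16 and 0.05 ± 0.16 against WTA (adjusted p = 0.981 and 0.939). Timp4, an inhibitor known from heart and muscle, was detected on 1 WTA array and 1 D7E array, with levels from 4.25 to 4.76 in all groups, so it had hardly more than a bound here.

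**Figure D3:**
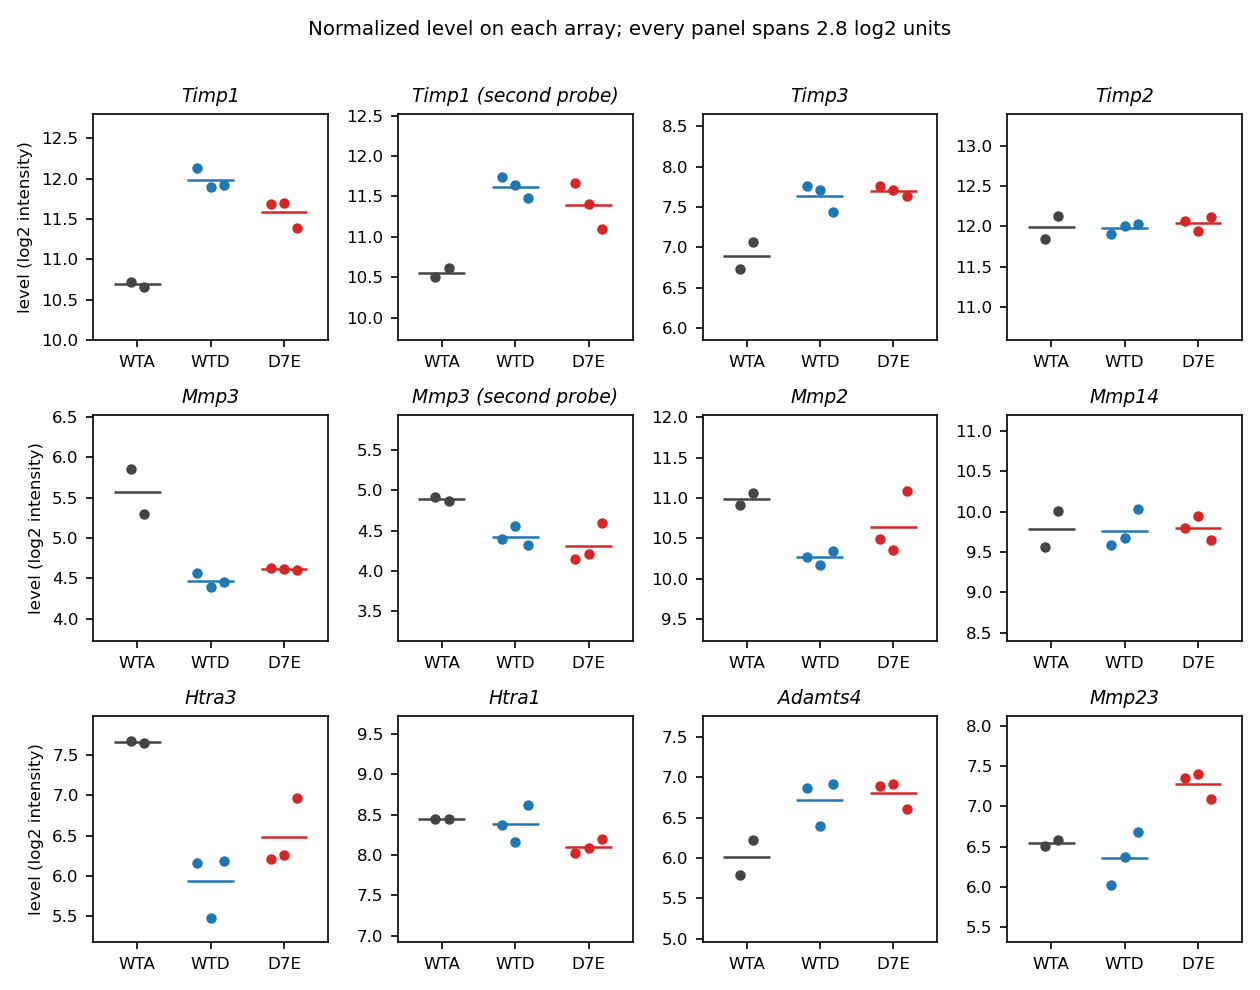
Normalized level in log2 intensity (vertical axis, each panel spanning the same range) of 12 probes of 10 genes on each array (points) of WTA, WTD and D7E (horizontal axis), with group means as lines. Both Timp1 probes and Timp3 lie higher in WTD and D7E than in WTA, Mmp3 and Htra3 lie lower, and Timp2 and Mmp14 overlap in all groups.

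Among the Htra proteases, Htra3, a secreted serine protease, had levels of 7.67 and 7.64 on WTA, 6.16, 5.48 and 6.18 on WTD, and 6.21, 6.25 and 6.97 on D7E arrays. Both WTA arrays were above every other array, and D7E replicate 3 lay nearer to WTA than any other. The difference was -1.71 ± 0.26 (log2, SE) for WTD over WTA, a 3.28-fold lower level (limma adjusted p = 0.00813). For D7E over WTA it was -1.18 ± 0.26 and missed the threshold (adjusted p = 0.0724), and for D7E over WTD it was 0.54 ± 0.23 (adjusted p = 0.585), so the effects of WTD and D7E were not shown to differ. Htra3 has another probe, which was detected on 2 arrays only and reads near background.

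Leaving out a single array changed the Htra3 calls. Without WTA replicate 1 the WTD difference stayed at -1.71 with an adjusted p of 0.113, and without WTA replicate 2 it was -1.73 with an adjusted p of 0.0631 (limma). Without D7E replicate 3 the D7E difference was -1.42 and was called (adjusted p = 0.0211), as it was without WTD replicate 2 (-1.19, adjusted p = 0.0397). In all, the WTD call was kept under 12 of 16 other settings, and the D7E difference was called under 5 of 16, which included the authors' normalized values (-0.75, adjusted p = 0.0458). Without background correction the WTD difference was smaller, -1.0 (adjusted p = 0.0174).

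Htra1, a secreted protease of the same family, read 8.44 and 8.45 on WTA, 8.37, 8.16 and 8.61 on WTD, and 8.02, 8.08 and 8.20 on D7E arrays. The D7E arrays were all below the WTA arrays, but the difference of -0.35 ± 0.17 was not called (adjusted p = 0.453) and turned to 0.13 with the arrays centred on their medians. The difference for WTD over WTA was -0.06 ± 0.17, and the second Htra1 probe gave 0.19 for WTD and -0.19 for D7E over WTA. Htra2, the mitochondrial member, read 7.22 and 7.07 on WTA, 7.21, 7.23 and 6.82 on WTD, and 7.28, 7.22 and 7.60 on D7E arrays. Its differences against WTA were -0.06 ± 0.19 and 0.23 ± 0.19 (adjusted p = 0.932 and 0.707). The 2 other Htra2 probes were not called either, and for WTD over WTA they pointed in opposite directions (0.19 and -0.19).

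Among the metalloproteinases, Mmp3, or stromelysin-1, which cuts many matrix proteins and activates other Mmp precursors, was read near the lower end of the range. It had levels of 5.85 and 5.29 on WTA, 4.56, 4.39 and 4.45 on WTD, and 4.63, 4.62 and 4.61 on D7E arrays. It was detected on 7 of 8 arrays, with both WTA arrays above all others and 1 WTD array not above background. The difference was -1.10 ± 0.18 (log2, SE) for WTD over WTA, a 2.15-fold lower level (limma adjusted p = 0.0144), and -0.95 ± 0.18 for D7E over WTA, or 1.93-fold (adjusted p = 0.0430).

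The size of the Mmp3 difference depended on the background correction. Under quantile normalization alone it was -0.36 (adjusted p = 0.0536) for WTD over WTA and -0.31 for D7E over WTA, and the authors' normalized values gave nearly the same sizes. The deposited detection p-values, which also enter the background correction, gave -0.91 for WTD over WTA, still called (limma adjusted p = 0.0237). For D7E over WTA they gave -0.80, not called (adjusted p = 0.0538). Without WTA replicate 1, the brighter WTA array, the WTD difference was -0.85 (adjusted p = 0.172) and the D7E difference -0.69, neither called. The D7E call held under 3 of 16 other settings, the WTD call under 11 of 16. It was lost in D7E without any 1 of the WTA arrays, of the D7E arrays, or WTD replicate 1.

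The second Mmp3 probe read 4.91 and 4.87 on WTA, 4.40, 4.56 and 4.32 on WTD, and 4.14, 4.21 and 4.59 on D7E arrays. It was not above background on any WTD array, and its level there was at least 1.29-fold lower than in WTA (adjusted p = 0.258). For D7E over WTA it gave -0.58 (adjusted p = 0.197). WTA was highest with this probe too, without a call.

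Mmp2, or gelatinase A, which cuts denatured collagen and collagen IV, read 10.92 and 11.06 on WTA, 10.27, 10.17 and 10.35 on WTD, and 10.49, 10.35 and 11.08 on D7E arrays. The WTD arrays were all below WTA and D7E replicate 3 was level with WTA. The differences of -0.73 ± 0.21 (WTD, adjusted p = 0.129) and -0.35 ± 0.21 (D7E, adjusted p = 0.557) were not called, and the D7E value turned to 0.23 with the arrays centred on their medians. Without D7E replicate 3 the WTD difference was -0.72 and was called (adjusted p = 0.0481). Mmp14, the membrane protease that activates Mmp2, read 9.56 and 10.00 on WTA, 9.59, 9.67 and 10.03 on WTD, and 9.80, 9.94 and 9.65 on D7E arrays. The groups overlapped fully, with differences of -0.02 ± 0.20 and 0.02 ± 0.20 against WTA.

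Fibroblast markers are given beside Htra3, Mmp3 and Mmp2. Of 8 markers 5 were measured, Lum, Thy1 and Tcf21 did not pass the filter, and Dcn, Pdgfra and Postn were near background. None of the 5 was called. The linear intensities of all 8 markers were summed on each array, those that did not pass the filter included. The sum was 2552 to 2972 in WTA, 1603 to 1847 in WTD and 1819 to 2609.8 in D7E, most of it from Col1a1. WTD lay below WTA without overlap, and D7E overlapped WTA. On D7E replicate 3, Col1a1 (11.06) and Col3a1 (8.44) were within the range of WTA or close to it, as Mmp2 was. Col3a1 was not near WTA on that array alone. It was within the WTA range on D7E replicate 1 (7.93) and below it on D7E replicate 2 (7.56). On WTD replicate 3 it was at 7.81, just below the lower WTA array (7.82), and the other WTD arrays were lower. Col1a1 was at 10.94 and 10.56 on D7E replicates 1 and 2. Htra3 was at 6.97 on D7E replicate 3, against 6.21 and 6.25 on the other D7E arrays. Mmp3, read near background, was at 4.61 there and equally low on the other D7E arrays. The part of these markers in the results for Htra3, Mmp3 and Mmp2 was not tested. Fewer cells of a type and less RNA per cell cannot be told apart in such samples.

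Mmp13, or collagenase-3, was not above background on any WTD array. It read 4.80 and 5.06 on WTA and 4.67, 4.62 and 5.16 on D7E arrays, against 4.24, 4.17 and 4.27 on WTD. It was thus at least 1.32-fold lower in WTD than in WTA (limma adjusted p = 0.105) and at least 1.22-fold higher in D7E than in WTD (adjusted p = 0.408), neither of them called. D7E and WTA overlapped, with a difference of -0.11 ± 0.19.

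Mmp23, a metalloproteinase anchored in the membrane until furin-like enzymes release it, had the largest difference of the 31 genes between D7E and WTD. It read 6.51 and 6.58 on WTA, 6.03, 6.37 and 6.68 on WTD, and 7.36, 7.40 and 7.09 on D7E arrays, so all D7E arrays were above all others. The difference was 0.92 ± 0.18 for D7E over WTD (limma adjusted p = 0.164) and 0.74 ± 0.20 for D7E over WTA (adjusted p = 0.142), neither called. Without WTD replicate 3 the first of these was 1.08 and was called (adjusted p = 0.0188).

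The remaining Mmp genes differed little or were dim. Mmp28, or epilysin, was not above background on either WTA array and was at least 1.36-fold higher in WTD (adjusted p = 0.255) and at least 1.09-fold higher in D7E (adjusted p = 0.717). Mmp11, or stromelysin-3, differed by -0.05 and -0.15 (WTD and D7E over WTA), and Mmp24, a membrane-bound member, by -0.09 and 0.14. A second Mmp24 probe, near background, pointed the other way in both (0.05 and -0.19). Mmp1a, an interstitial collagenase, differed by 0.04 and 0.13. Mmp1b, a close copy of Mmp1a, was detected on 2 arrays, and Mmp16, another membrane-bound member, on 4, with levels near background in each group. Whether the Mmp1a and Mmp1b probes read both genes was not tested.

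Among the Adamts proteases, Adamts4, which cuts aggrecan and versican, was higher on every WTD and D7E array than in WTA. It read 5.79 and 6.23 on WTA, 6.87, 6.39 and 6.92 on WTD, and 6.89, 6.92 and 6.61 on D7E arrays. The differences were 0.72 ± 0.21 and 0.80 ± 0.21 (adjusted p = 0.132 and 0.133), neither called. Adamts1, another protease that cuts versican, read 4.68 and 5.14 on WTA, 5.36, 5.04 and 4.88 on WTD, and 4.70, 4.61 and 4.83 on D7E arrays. Its groups overlapped against WTA, with differences of 0.18 ± 0.20 and -0.20 ± 0.20, and its 2 other probes were near background.

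Adamts16 read 5.10 and 5.04 on WTA, 4.37, 4.50 and 5.05 on WTD, and 5.48, 5.61 and 5.40 on D7E arrays. The D7E arrays were above all others, and WTD replicate 3 was level with WTA while the other WTD arrays were lower. The difference was 0.86 ± 0.18 for D7E over WTD (adjusted p = 0.197), and -0.43 ± 0.20 and 0.43 ± 0.20 against WTA. Without WTD replicate 3 it was 1.01 for D7E over WTD and was called (adjusted p = 0.0188).

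Adamts12 and Adamts7, close relatives that cut cartilage oligomeric matrix protein, were detected on all 8 arrays and differed from WTA by -0.15 and 0.04 in WTD and by 0.00 and 0.07 in D7E. Adamts20 differed by -0.32 and -0.04. Adamts6, Adamts10 and Adamts19 were detected on 2 or 3 arrays each, with levels between 4.18 and 4.69, near background.

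Among the Adamtsl proteins, Adamtsl2, which binds fibrillin and latent TGF-beta binding protein, read 7.69 and 7.10 on WTA, 8.08, 8.39 and 7.82 on WTD, and 7.94, 7.54 and 7.21 on D7E arrays. All WTD arrays were above WTA, and D7E overlapped both other groups. The differences were 0.70 ± 0.25 (WTD over WTA, adjusted p = 0.215), 0.17 ± 0.25 (D7E over WTA) and -0.53 ± 0.22 (D7E over WTD, adjusted p = 0.560), and the last turned to 0.17 with the arrays centred on their medians. Adamtsl4, a fibrillin-binding protein, read 6.91 and 6.74 on WTA, 6.77, 7.35 and 6.71 on WTD, and 6.93, 6.90 and 7.07 on D7E arrays, with differences of 0.12 ± 0.20 and 0.14 ± 0.20 against WTA. Adamtsl1 and Adamtsl3 differed from WTA by 0.12 and 0.01 in WTD and by 0.20 and 0.15 in D7E, at levels near background.

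**Figure D4:**
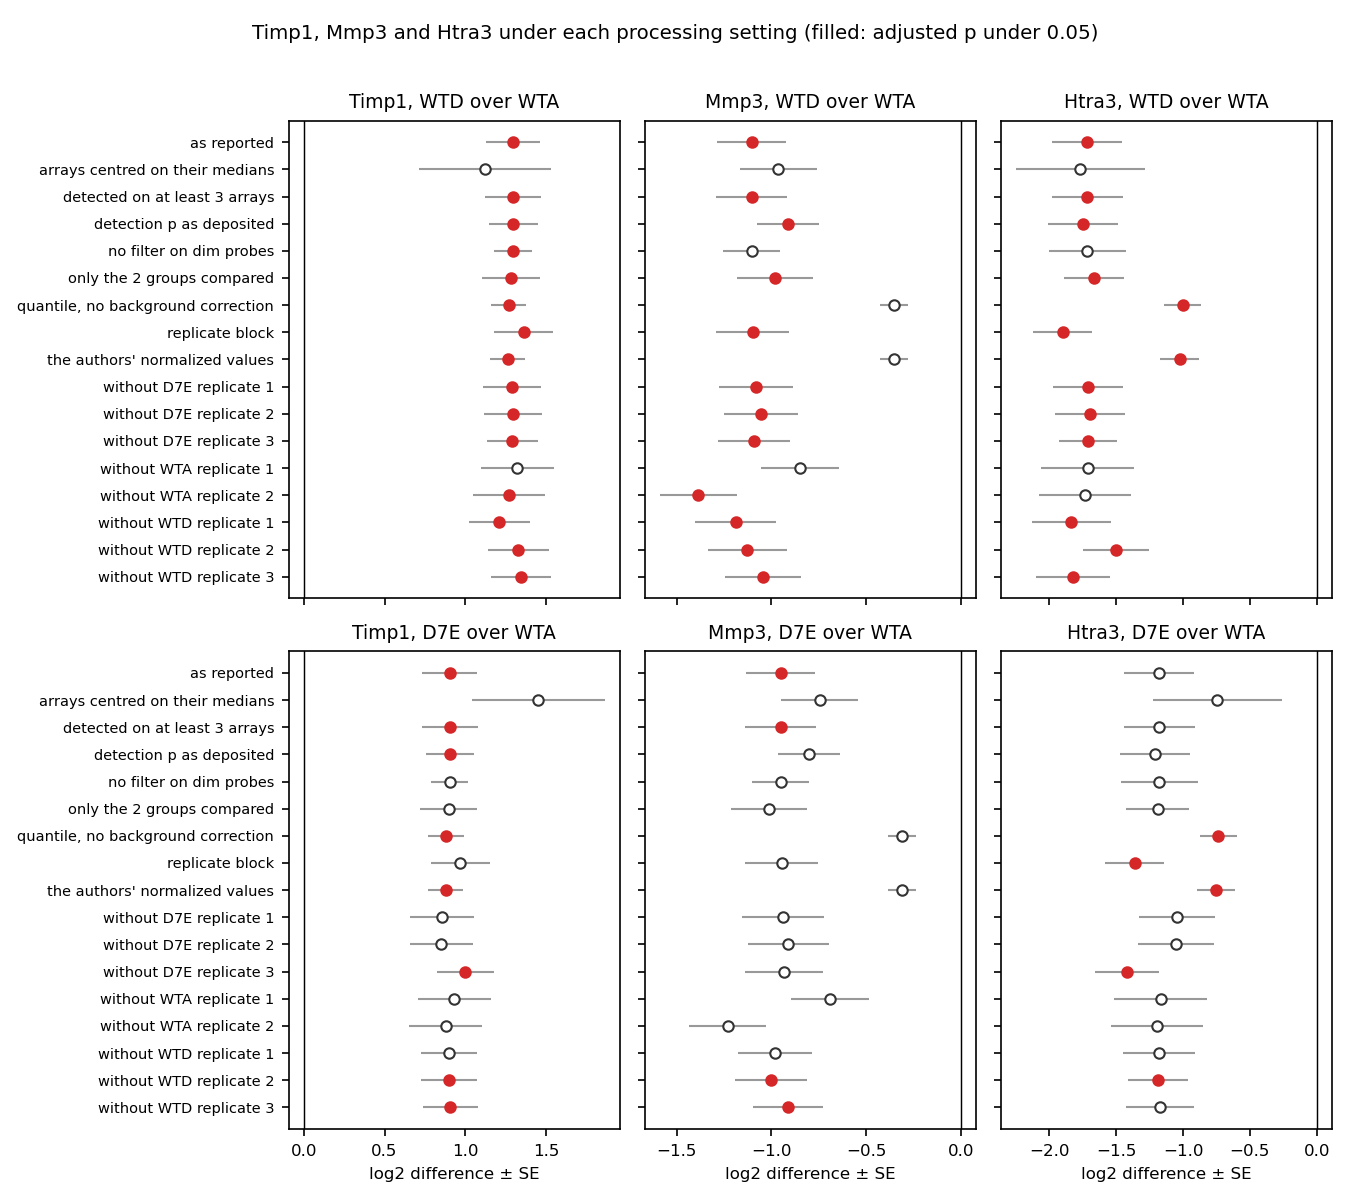
Log2 difference with its SE (horizontal axis) of the brighter Timp1 and Mmp3 probes and of Htra3 under each processing setting (vertical axis) for WTD over WTA (top) and D7E over WTA (bottom). Filled points have an adjusted p under 0.05. Timp1 in WTD is filled under 14 of 16 other settings, Mmp3 in D7E under 3 of 16, and all points keep their side of 0.

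Genes that act with these proteases were read from 6 lists, and a gene again stood for its brightest tested probe. In the plasminogen system and its serpins, which activate Mmp precursors and restrain serine proteases, 6 of 12 genes were measured and none was called. Serpinb6a had -0.81 (WTD over WTA, limma adjusted p = 0.0502) and -0.81 (D7E over WTA, adjusted p = 0.0754), Serpinh1, the collagen chaperone, 0.66 and 0.33, Plat, the tissue plasminogen activator, 0.58 and 0.45, and Serping1 0.18 and -0.04. Of the Adam sheddases 8 of 10 were measured and none was called. Adam23 had 1.08 and 1.05, Adam9 -0.31 and 0.28, Adam10 0.19 and -0.03, and Adam12 0.20 and 0.20.

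Of the cathepsins and cystatins 12 of 15 were measured and Ctsw, a cysteine protease known from lymphocytes, rose in WTD (1.87, adjusted p = 0.00476), with no call in D7E (0.65). Ctsa had 0.69 in WTD over WTA, Ctsf 0.41 and Ctsl -0.53. For Ctsa, 2 other tested probes pointed the other way. Among activators, anchors and clearance receptors 11 of 14 were measured and Thbs2, a matrix protein that binds Mmp2 for uptake, fell in WTD (-1.88, adjusted p = 0.0350), with -0.78 in D7E. Pcsk6 and Furin, which cut protease precursors, had 0.80 and 0.51 in WTD over WTA, and Thbs1 had -0.49.

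In procollagen processing 8 of 10 genes were measured and none was called, with Plod2 at -0.64, Bmp1 at 0.37, Loxl1 at 0.18 and Pcolce at 0.19 in WTD over WTA. For Bmp1 and for Loxl1, 1 other tested probe each pointed the other way. Of the proteoglycan and fibre substrates 14 of 22 were measured and Col4a2, a chain of basement membrane collagen, rose in WTD (1.19, adjusted p = 0.0208), with 0.59 in D7E. Its partner Col4a1 had 0.85, Col3a1 -0.82 and Bgn -0.77, none of them called. No gene of the 6 lists was called in D7E over WTA or in D7E over WTD. The median differences of the lists for WTD over WTA lay between -0.15 (substrates) and 0.18 (cathepsins and cystatins), against -0.01 for all tested probes.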

How the data were processed

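Total RNA was amplified and labelled with biotin with the Illumina TotalPrep kit, per the labels' protocols. The deposited raw tables hold, per the file headers, non-normalized intensities and a detection p-value for each probe and array, 1 table with the WTA and WTD arrays and 1 with the WTA and D7E arrays. The authors also deposited normalized log2 values, used as an alternative. Neither scanner software nor genome build is given in the sources used here. Since the WTA signals of both tables were identical in 100% of values, these arrays were counted once. Groups came from the sample titles.

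The WTD set held its probes in another order, which was restored by matching the pairs of WTA ranks (45281 of 45281 probes matched, 0 kept their place). The WTD signals played no role in this match and afterwards correlated with WTA by rank at 0.725 to 0.789. For WTD replicates 1 and 3 the detection p-values, as deposited, had rank correlations of -0.714 and -0.711 with their own signals, where the other 6 arrays had -0.996 to -0.987. They were replaced by estimates from 23132 background probes, which on the other arrays matched the deposited detection call at 97.3% to 98.8% of probes. On each of those arrays the estimate detected more probes than the deposited values, for example 16878 against 15656 on D7E replicate 1. The detection p-values also set the background correction, which thus rested on estimates for WTD replicates 1 and 3 and on deposited values for the other 6 arrays. Between 13653 and 17565 probes were detected per array, and the number of arrays limits the precision.

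Intensities of all 8 arrays were normalized together with neqc (limma 3.58.1, R 4.3.3, offset 16), so that a gene has 1 level per array in every comparison. Probes detected on at least 2 arrays were fitted with lmFit and eBayes on group means, without covariates, two-sided, with Benjamini-Hochberg adjustment over all 18815. The fit was also run on simulated data with independent noise on each array, which does not cover deviations shared between arrays. Where every array of a group had a probe below background, the fold is a bound. It sets the mean of the bright group against a floor, which on each array is the lowest level of a detected probe, or the level of the probe itself where that is higher. Symbols came from the platform annotation (34885 probes with 1 symbol, 18 with several, 10378 with none). Same-numbered WTD and D7E arrays did not deviate together (correlations of -0.0228, -0.0323 and -0.0968). Same-numbered WTA and WTD arrays had 0.150 and -0.275, so no replicate block was used. Arrays of different numbers did share deviations, with 0.402 for WTA replicate 2 and WTD replicate 3. WTA replicate 1 and WTD replicate 3 had -0.402, since the 2 WTA arrays mirror each other around their mean. The fit does not take such sharing into account. Slides and scan dates are not in the headers, so no batch could be examined.

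The members and the gene lists were chosen with earlier results of these data known. Arrays are given 1 by 1 for genes with a called probe, for Timp1 to Timp4, Htra1 to Htra4, Mmp2, Mmp9, Mmp14, Adamts1, Adamts5 and Adamtsl4 where tested, and for the 6 genes with the largest difference per comparison. Other tested genes have their difference, and list genes are named where called or among the 4 largest differences of a list. Alternatives covered normalization, joint or separate tables, the filter, the deposited detection p-values, the replicate block and leaving out each array.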

Additional observations from a re-analysis of the deposited data

How the results depend on the processing

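With 2 WTA arrays every call leans on few values. Of 1481 recomputed differences of single member probes, 1339 were counted as the same. These were called in both fits with the same sign, or called in neither and moved by at most the fitted SD between arrays. A turned sign could still count as the same where the reported difference was no larger than its SE. Of the others 78 moved further with no call in either fit, 39 lost a call, 19 gained one and 6 turned from a difference larger than its SE. Centring arrays on their medians called 0 probes in each comparison, members included, and moved the median of all tested probes by -0.07, 0.26 and 0.39 (WTD over WTA, D7E over WTA and D7E over WTD). The sign turned in 90 of the recomputed differences, 15 of them under this centring, 62 on leaving out 1 array (none over 0.20 in size as reported) and 13 under other settings (none over 0.04). Under centring the differences larger than their SE that turned were those of Htra1 (0.13) and Mmp2 (0.23) for D7E over WTA, and of Adamtsl2 (0.17), Htra1 (0.41), Timp1 (0.33) and its second probe (0.51) for D7E over WTD. Mmp11, smaller than its SE, turned to 0.27 (D7E over WTA) and 0.51 (D7E over WTD). The cause was not tested. With no filter on dim probes, 1 member of 62 probes was called for WTD over WTA, 0 of 59 for D7E over WTA and 0 probes for D7E over WTD. Fitting only the arrays of the 2 groups compared gave 0 members of 71 probes for D7E over WTA and 1 probe for D7E over WTD. Quantile normalization without background correction and the authors' values each gave 4 members of 276 probes for D7E over WTA (both Timp1 probes, Timp3 and Htra3, but not Mmp3) and 2 probes for D7E over WTD. The deposited detection p-values gave 0 probes for D7E over WTD. The replicate block gave 1 member of 52 probes for D7E over WTA, against 2 of 107 without it. That member was Htra3 (limma adjusted p = 0.0410), while Timp1 (0.0684) and Mmp3 (0.0908) missed the threshold. The block gave 4 members of 311 for WTD over WTA, and 0 of 7 for D7E over WTD. Leaving out 1 array gave 0 to 5 members and 2 to 409 probes for WTD over WTA, 0 to 3 members and 0 to 186 probes for D7E over WTA, and 0 to 2 members and 0 to 72 probes for D7E over WTD. The counts of 0 and 2 for WTD over WTA came without WTA replicate 1, and the 2 members and 72 probes for D7E over WTD without WTD replicate 3. Levels near background limit what can be said of Mmp3, Mmp13, Mmp28 and Timp4.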
